A study of Mus musculus with 9 samples.

Results

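The genes described here are the integrins and the cytoplasmic adaptors that couple them to the cytoskeleton at focal adhesions. A gene was taken as a member when its row was annotated as protein coding and its symbol was that of an integrin alpha subunit, of an integrin beta subunit, or of 1 of a named set of adaptors (Ptk2, Ptk2b, Pxn, Vcl, Tln1, Tln2, Ilk, Lims1, Parva, Zyx, Bcar1, Src, Fermt1, Fermt2, Fermt3, Tns1, Tns2 and Tns3). This gave 44 of the 50813 genes in the count table, made up of 18 alpha subunits, 8 beta subunits and 18 adaptors. The rule itself reads only symbols and the annotation.

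Bulk poly(A) RNA-seq was carried out on cultured Lewis lung carcinoma (LLC) cells, a mesenchymal-like mouse lung cancer line that carries a luciferase reporter and was grown in DMEM with serum. The 9 libraries comprised 3 of WT cells and 3 of each of 2 CD47 KO lines, clone E3 and clone E5. Both KO lines were made by electroporation of Cas9 ribonucleoprotein against Cd47 followed by clonal expansion, so each KO line was a single clone, and no such cloning step is described for the WT cells. The effect of losing CD47 and a difference between one clone and the cells it came from cannot be told apart within either comparison with WT, and the 2 comparisons share the same 3 WT libraries.

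Integrins are transmembrane receptors for extracellular matrix, each built from 1 alpha and 1 beta subunit that pair inside the cell before they reach the surface. The alpha subunit largely sets the ligand, such as laminin, collagen or the RGD motif of fibronectin and vitronectin. The beta tail binds talin and kindlin, which activate the receptor, and then recruits paxillin, focal adhesion kinase (FAK), vinculin, zyxin and the complex of integrin-linked kinase with PINCH and parvin. CD47, once called integrin-associated protein, was found as a partner of integrin alpha v beta 3 at the cell surface.

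Total counts ranged from 44257404 to 55095219 per library, and 14593 genes passed the filter on low counts. Cd47 itself was measured at 179 to 187 CPM (counts scaled to library depth, with TMM factors) in the WT libraries, at 36.7 to 49.6 CPM in clone E3 and at 15.5 to 18.6 CPM in clone E5. The third library of clone E3 stood apart from the other 8, with a median absolute deviation from its group of 0.317 on the log2 scale against 0.0593 to 0.214 elsewhere, and results that turn on it are given with and without it. Of the 7 leukocyte markers examined, 5 had at most 3 counts in any library, and their summed level was 0.253 to 0.442 CPM in WT, 0.486 to 0.550 in clone E3 and 0.0868 to 0.148 in clone E5. The mesenchymal list (Vim, Cdh2, Fn1, Sparc, Col1a1) summed to 6184 to 6652 CPM in WT, 6728 to 7558 in clone E3 and 7332 to 8661 in clone E5, so that both clones lay above WT and overlapped each other. Vim, the mesenchymal intermediate filament vimentin, made up most of this sum, at means of 4166, 5480 and 6571 CPM in WT, clone E3 and clone E5. It was higher than in WT in both clones (0.40, adjusted p = 0.0301, and 0.66, adjusted p = 0.00335). The rest of the list did not follow it in both clones. Fn1 differed by -0.81 and -0.66 and Cdh2 by -0.03 and 0.25, none with an adjusted p under 0.05. Sparc rose in clone E3 (1.30) and differed by 0.06 in clone E5, while Col1a1 rose in clone E3 (0.99) and fell in clone E5 (-1.45). Of the 8 lung epithelial markers, 4 (Nkx2-1, Sftpc, Sftpb and Epcam) had 0 counts in every library, while the list, through Krt8 and Krt18, summed to 451 to 459 CPM in WT, 127 to 199 in clone E3 and 896 to 957 in clone E5. The part of these keratin and mesenchymal differences in the integrin results was not tested.

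Of the 44 members, 34 had enough counts to be tested, namely 10 alpha subunits, 7 beta subunits and 17 adaptors. The other 10 were not tested, and none of them exceeded 12 counts in any library. Itga4 and Itgad had 0 counts in all 9 libraries, which allows a level of up to 0.0555 to 0.0660 CPM depending on the library. Itga8, Itga9, Itga11, Itgam, Itgb6 and Fermt1 had 0 to 4 counts, Itga2 had 1 to 5 and Itgal had 1 to 12. These untested genes include most of the alpha subunits of leukocyte integrins (Itgad, Itgal, Itgam) and both members of the alpha 4 and alpha 9 pair, which bind VCAM-1 and related ligands.

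Levels of different genes were compared as CPM per kb of the canonical transcript, with the mean of 3 libraries. In WT cells the highest integrin subunits were Itgb1 at 149, Itga6 at 132 and Itgb7 at 130 CPM per kb. A second tier held Itga5 at 27.6, Itga3 at 22.6, Itgav at 19.6 and Itgb5 at 19.6 CPM per kb, and Itga7 followed at 10.2. Itgb2 stood at 4.80 CPM per kb and every other integrin subunit was under 2. Among the tested adaptors the levels in WT ran from 83.4 for Zyx, 72.7 for Ilk, 68.9 for Tln1, 61.3 for Pxn and 58.0 for Vcl down to 0.448 for Tns1, 0.334 for Ptk2b and 0.249 for Fermt3. When lengths were taken as the union of all annotated exons, Itga6 in WT dropped to 51.3 CPM per kb while Itgb1 and Itgb7 stood at 125 and 120, so the near equality of Itga6 with the leading beta subunits depends on which transcript the cells use.

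**Figure D1:**
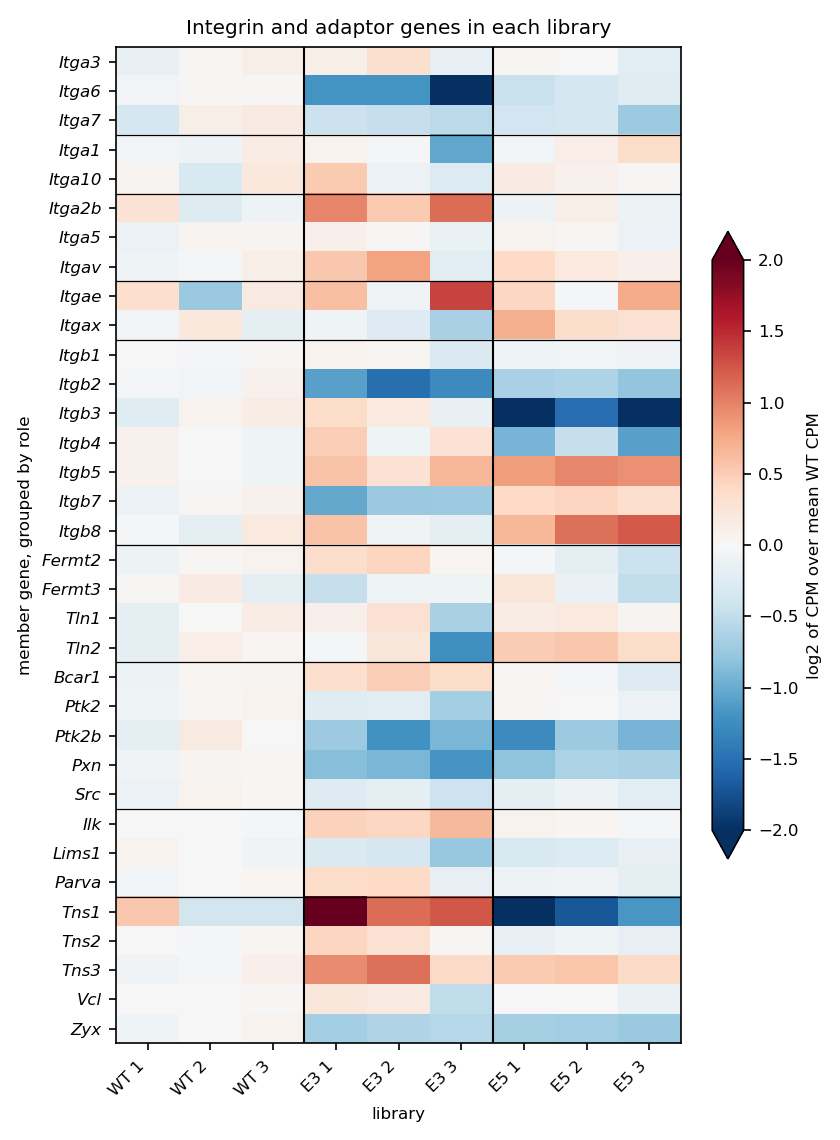
Level of each of the 34 tested members in each of the 9 libraries, as log2 of its CPM over the mean CPM of WT (0.1 added to both), with members in rows grouped by role, libraries in columns, red above and blue below the WT mean, and colours saturating at 2 in either direction. Itga6, Itgb2, Ptk2b, Pxn and Zyx are blue in all 6 KO columns, Itgb5 is red in all 6, and Tns1 is red in the clone E3 columns and blue in the clone E5 columns.

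Each clone was then compared with WT in one fit of all 9 libraries, by the quasi-likelihood test of edgeR, with p-values adjusted over all 14593 genes by the Benjamini-Hochberg method, and a gene passed at an adjusted p under 0.05. In clone E3, 15 of the 34 tested members passed (44.1%), beside 30.5% of all genes tested. Of these, 6 were higher than in WT and 9 were lower, where 15.7% of all genes were higher and 14.7% lower. With upper-quartile scaling in place of TMM the split was 8 higher and 7 lower, as the median of all genes moved from 0.01 to 0.09. In clone E5, 11 of 34 passed (32.4%), beside 20.6% of all genes, with 3 higher and 8 lower where 8.96% and 11.7% of all genes were. Members that also changed by more than 1 on the log2 scale, the threshold for a differentially expressed gene (DEG), numbered 4 in each clone, beside 9.82% of all genes in clone E3 and 8.21% in clone E5. In each clone 1 of these 4 was higher and 3 were lower, whereas DEGs over all genes were 5.43% higher and 4.39% lower in clone E3 and 2.69% higher and 5.52% lower in clone E5. Without clone E3 replicate 3 the members that passed numbered 21 in clone E3 (43.2% of all genes) and 16 in clone E5 (42.0% of all genes), and without WT replicate 2 they numbered 11 and 6 (19.3% and 11.9% of all genes). The count in clone E5 was 7 without WT replicate 1 (13.1% of all genes) and 7 without clone E5 replicate 1 (12.8%). Member DEGs in clone E5 numbered 2 without WT replicate 1, WT replicate 2 or clone E5 replicate 1. The median log2 fold change of the tested members was 0.00 in clone E3 and -0.06 in clone E5, beside 0.01 and -0.00 over all genes.

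The counts were also split by class, to be read beside the 30.5% of all genes that passed in clone E3 and 20.6% in clone E5. Of the 10 tested alpha subunits, 3 passed in clone E3 (30%) and 1 in clone E5 (10%). Of the 7 beta subunits, 3 passed in clone E3 (42.9%) and 6 in clone E5 (85.7%). Of the 17 adaptors 9 passed in clone E3 (52.9%), 4 higher and 5 lower, and 4 passed in clone E5 (23.5%), all lower. Whether the classes differ from one another was not tested.

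**Figure D2:**
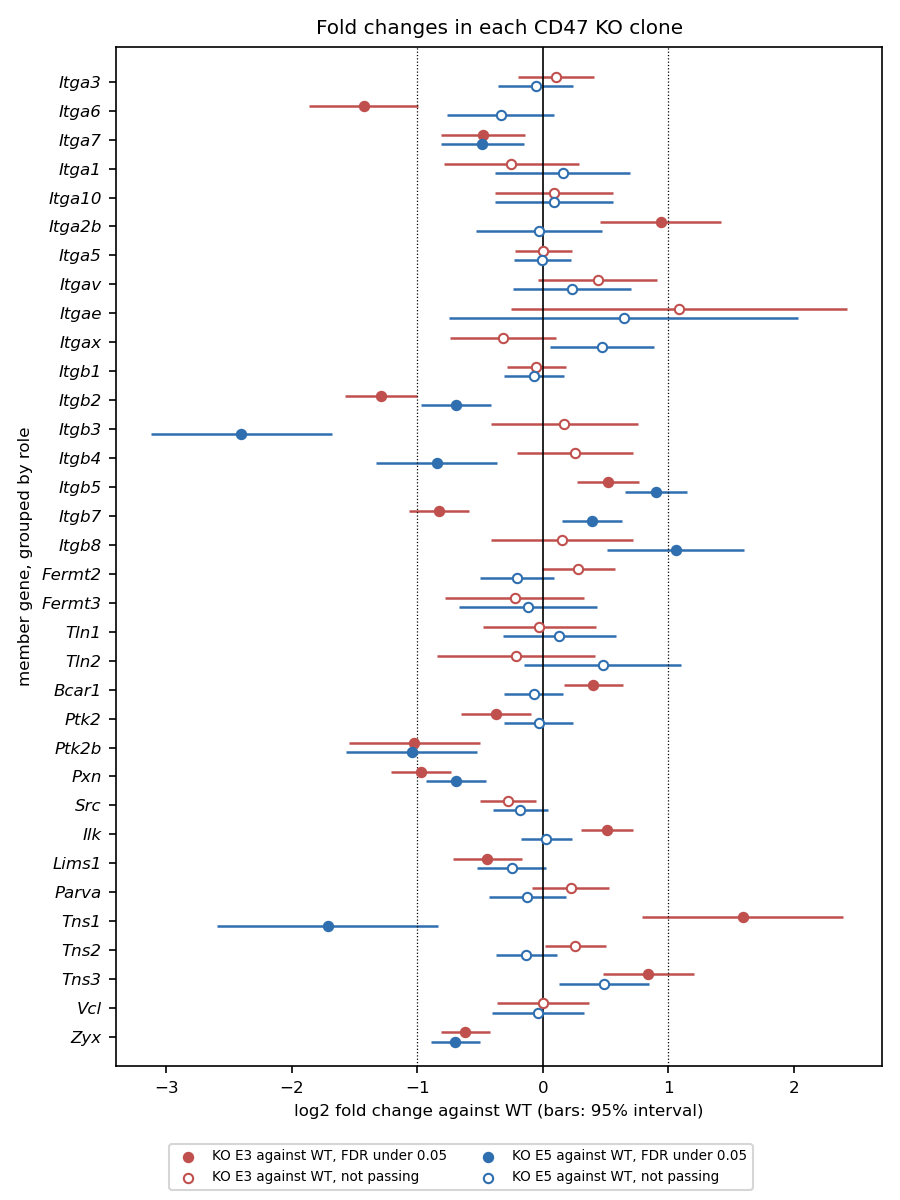
Log2 fold change of each of the 34 tested members in clone E3 (red) and clone E5 (blue) against WT, with bars for the 95% interval, filled points for an adjusted p under 0.05 and dotted lines at a change of 1 in either direction. Pxn, Ptk2b, Zyx and Itgb2 lie left of 0 in both clones, Itgb7 and Tns1 lie on opposite sides, and Itgb1 and Itga5 sit on 0.

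Among the alpha subunits of laminin receptors, Itga6, which pairs with beta 1 or beta 4, showed the largest change (Itga6 lies at chr2:71575960-71688760 in GRCm39, the build of the count table and of all gene positions given here). It was measured at 562, 592 and 596 CPM in the WT libraries, at 254, 256 and 141 CPM in clone E3 and at 429, 462 and 495 CPM in clone E5. All 6 KO libraries were below all 3 WT libraries, and the clone E3 libraries lay below those of clone E5. Itga6 fell by 1.43 in clone E3 on the log2 scale (SE 0.20, adjusted p = 0.000482), a level 2.69-fold lower than in WT. In clone E5 the log2 difference was -0.34 with a 95% interval of -0.76 to 0.09 (adjusted p = 0.256). The third clone E3 library widened the spread that all comparisons share: without it the clone E5 difference was -0.33 and passed (adjusted p = 0.00182), and the clone E3 difference was still called at -1.20. Itga7, the laminin receptor best known from muscle, was measured at 32.9, 45.3 and 47.4 CPM in WT, at 31.1, 30.3 and 28.9 in clone E3 and at 32.0, 32.8 and 25.1 in clone E5. Every KO library was below every WT library, though WT replicate 1 only narrowly so. It fell by 0.48 in each clone (adjusted p = 0.0355 for clone E3, 0.0449 for clone E5), and these 2 calls were among the least stable, being lost in 7 and 8 of 16 alternatives with adjusted p up to 0.142 and 0.172. The libraries whose omission ended the call were WT replicates 2 and 3 and clone E3 replicates 1 and 2 in both clones, and each of the clone E5 libraries in clone E5. Itga3, whose product pairs with beta 1, did not pass in either clone (0.11 and -0.06).

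Of the alpha subunits whose receptors recognise RGD, Itga5, the fibronectin receptor subunit, was nearly level across the lines. It was measured at 111, 126 and 126 CPM in WT, at 130, 123 and 111 in clone E3 and at 127, 124 and 111 in clone E5. The 3 groups overlapped throughout. Its log2 difference from WT was 0.00 in clone E3 with a 95% interval of -0.22 to 0.23, and -0.00 in clone E5 with an interval of -0.23 to 0.22. Itgav, the alpha v subunit that CD47 was first purified with, was measured at 136, 141 and 157 CPM in WT, at 210, 253 and 124 in clone E3 and at 190, 166 and 154 in clone E5. Clone E3 replicates 1 and 2 lay above every WT library and replicate 3 lay below all of them. The log2 difference was 0.44 in clone E3 (interval -0.04 to 0.91, adjusted p = 0.151) and 0.23 in clone E5 (interval -0.24 to 0.71, adjusted p = 0.498). Without clone E3 replicate 3 the clone E3 difference was 0.68 and passed (adjusted p = 0.000257), so for Itgav that library decided the call. Itga2b, the platelet integrin subunit, was low, at 1.22 to 1.82 CPM in WT and 1.36 to 1.60 in clone E5, and rose in clone E3 to 2.16 to 3.32 CPM (log2 difference 0.94, adjusted p = 0.00878). Among platelet and megakaryocyte markers, Gp1ba and Gp9 had 0 counts in every library and Pf4 at most 5.

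The collagen receptor subunits Itga1 and Itga10 did not pass in either clone, with log2 differences between -0.25 and 0.16. Of the alpha subunits of leukocyte integrins, Itgae and Itgax were tested. Itgae, the partner of beta 7 on intraepithelial lymphocytes, had 2 to 23 counts per library and did not pass. Itgax (CD11c) was measured at 3.55 to 4.69 CPM in WT, at 2.55 to 3.82 in clone E3 and at 5.01 to 6.66 in clone E5. The clone E5 libraries lay above all others, and the difference from WT was 0.47 (adjusted p = 0.102), which passed without clone E3 replicate 3 (adjusted p = 0.0223).

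Of the 7 tested beta subunits, 2 fell and 1 rose in clone E3, where 14.7% and 15.7% of all genes did. In clone E5 3 fell and 3 rose, where 11.7% and 8.96% of all genes did. Itgb1, the common beta chain of laminin, collagen and fibronectin receptors, was measured at 746, 733 and 756 CPM in WT, at 785, 761 and 611 in clone E3 and at 700, 720 and 710 in clone E5. The clone E5 libraries lay just under the WT range and clone E3 straddled it. The log2 difference was -0.05 in clone E3 (95% interval -0.29 to 0.19) and -0.07 in clone E5 (interval -0.31 to 0.17).

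Itgb7 (chr15:102124430-102140379), which pairs with alpha 4 or alpha E on lymphocytes, was measured at 322, 354 and 368 CPM in WT. It stood at 171, 207 and 211 CPM in clone E3 and at 460, 471 and 440 CPM in clone E5. The 3 lines did not overlap, with clone E3 below and clone E5 above WT. Itgb7 fell by 0.83 in clone E3 (SE 0.11, adjusted p = 0.000357) and rose by 0.39 in clone E5 (SE 0.11, adjusted p = 0.0254). The rise was lost when any WT replicate, or clone E5 replicate 1 or 2, was left out (adjusted p up to 0.115), with a log2 difference of 0.34 to 0.43 over all alternatives. Of the leukocyte markers, Ptprc, Cd3e, Adgre1, Csf1r and Itgam had at most 2 counts in any library and Cd79a at most 9, while Lyz2 reached 21 counts and was lower in clone E5 than in WT (-3.49, adjusted p = 0.00483), the clone in which Itgb7 was highest. Their part in the Itgb7 result was not tested.

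Itgb5 (chr16:33650035-33769708), the vitronectin receptor subunit that pairs with alpha v, rose in both clones. It was measured at 69.2, 64.9 and 61.9 CPM in WT, at 97.1, 80.2 and 104 in clone E3 and at 116, 128 and 123 in clone E5. The lines did not overlap and clone E5 was the highest. The log2 difference was 0.52 in clone E3 (SE 0.11, adjusted p = 0.00555) and 0.90 in clone E5 (SE 0.11, adjusted p = 0.000267). Itgb5 lies on chromosome 16, as Cd47 does, and the median log2 difference of its 40 nearest tested genes was -0.04 in clone E3 and 0.29 in clone E5. The part of these neighbours in the rise was not tested.

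Itgb2 (chr10:77366086-77401542), the beta chain of the leukocyte integrins, was measured at 14.0, 13.8 and 15.1 CPM in WT, at 6.68, 4.97 and 5.87 in clone E3 and at 9.05, 9.26 and 8.23 in clone E5. Again the lines did not overlap, and both clones were below WT. It fell by 1.29 in clone E3 (adjusted p = 7.69e-05) and by 0.69 in clone E5 (adjusted p = 0.00329). The 40 nearest tested genes had median differences of -0.36 (clone E3) and -0.13 (clone E5), and their part was not tested.

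The sparsely expressed beta subunits Itgb3, Itgb4 and Itgb8 changed in clone E5 and did not pass in clone E3. Itgb3 (chr11:104498826-104561302), the partner of alpha v in the receptor with which CD47 was first described, was measured at 0.881, 1.11 and 1.18 CPM in WT, at 1.40, 1.23 and 0.945 in clone E3 and at 0.129, 0.304 and 0.166 in clone E5. These are 44 to 56 counts in a WT library and 6 to 14 in a clone E5 library, and only the clone E5 libraries stood apart. Itgb3 fell by 2.40 in clone E5 (SE 0.32, adjusted p = 0.000494), a level 5.28-fold lower, and differed by 0.17 in clone E3 (interval -0.41 to 0.75). Itgb4, the hemidesmosomal partner of alpha 6, was measured at 2.90, 2.71 and 2.57 CPM in WT, at 3.90, 2.56 and 3.34 in clone E3 and at 1.38, 1.95 and 1.24 in clone E5. It fell by 0.85 in clone E5 (adjusted p = 0.0198), a call lost without WT replicate 1 or 2 or clone E5 replicate 1 or 3 (adjusted p up to 0.0780). Of the 7218 exonic bases of Itgb4, 1074 overlap Galk1 on the other strand, which had 51108 counts over the 9 libraries against 1085 for Itgb4, and the part of that overlap was not tested. Itgb8 (chr12:119121757-119202537), an alpha v partner that binds latent TGF-beta, was measured at 1.60, 1.41 and 1.88 CPM in WT, at 2.48, 1.54 and 1.41 in clone E3 and at 2.63, 3.60 and 3.94 in clone E5. It rose by 1.06 in clone E5 (SE 0.25, adjusted p = 0.0125), a call lost without WT replicate 1 or 2 (adjusted p up to 0.0636).

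**Figure D3:**
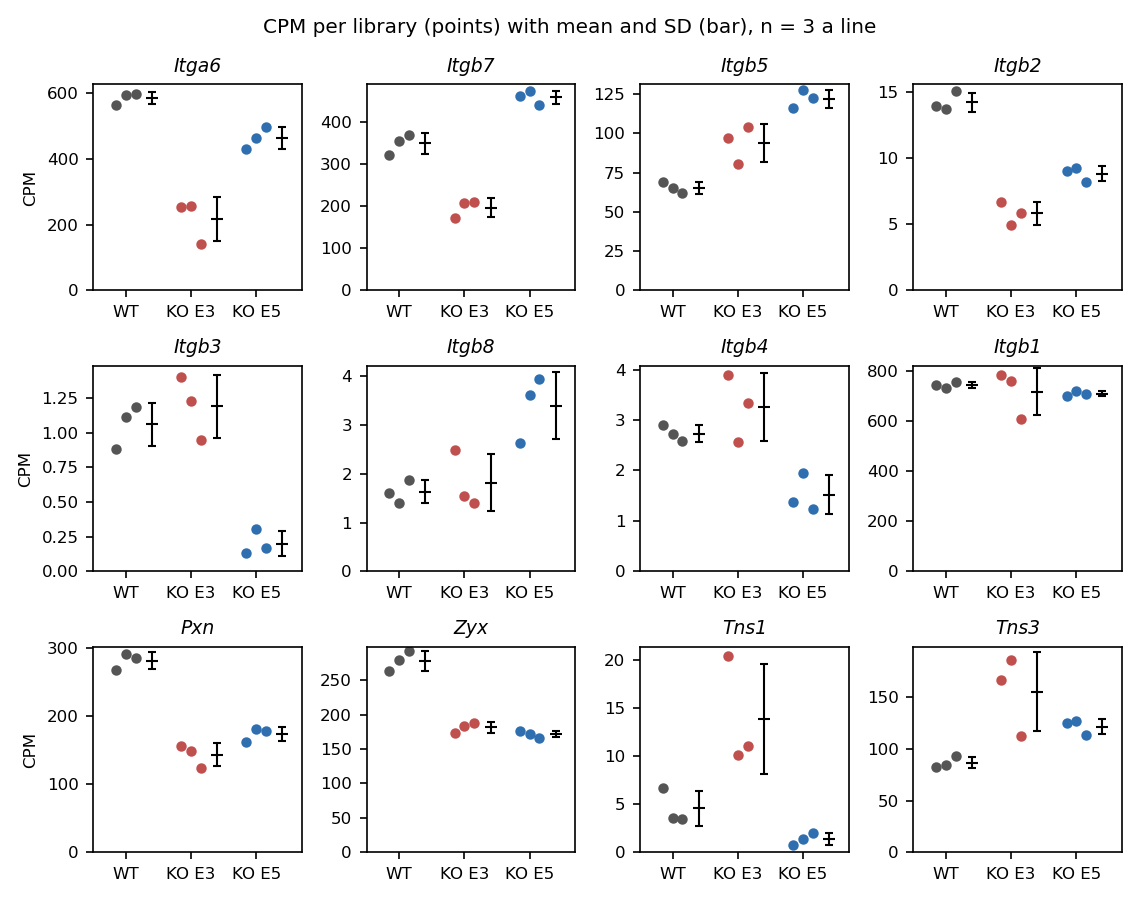
CPM of single members in each library (points) with the group mean and SD (bars), for WT, clone E3 and clone E5, each panel on its own axis from 0. The panels show lines that do not overlap for Itgb7 and Itgb5, clone E3 far below WT and clone E5 for Itga6, and clone E5 near 0 for Itgb3.

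An integrin needs both of its subunits, so the mRNA levels were read pair by pair over the 24 heterodimers that mouse integrins form. Both subunits reached 1 CPM per kb for 8 pairs in WT and in clone E3: alpha 1, 3, 5, 6, 7, 10 and v with beta 1, and alpha v with beta 5. In clone E5 a further pair, alpha X with beta 2, crossed that line because Itgax stood at 1.37 CPM per kb against 0.988 in WT. With exon-union lengths Itga1 fell under 1 in all 3 lines (0.728 to 0.967). Itgb7 had no partner above that line, since it stood at 130, 73.2 and 170 CPM per kb in WT, clone E3 and clone E5 while Itgae stood at 0.0250, 0.0542 and 0.0389 and Itga4 had 0 counts. Likewise Itgb4, the second partner of Itga6, stood at 0.245 to 0.524 CPM per kb where Itga6 stood at 49.2 to 132. In the alpha v beta 3 pair Itgb3 was the scarcer mRNA in every line, at 0.183, 0.206 and 0.0345 CPM per kb against 19.6, 26.5 and 23.0 for Itgav. For alpha v beta 5 the 2 mRNAs were close, at 19.6 and 19.6 CPM per kb in WT, and which of them was the higher in WT and clone E3 changed with the choice of length. These are mRNA levels, and the surface amount of each receptor was not measured.

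**Figure D4:**
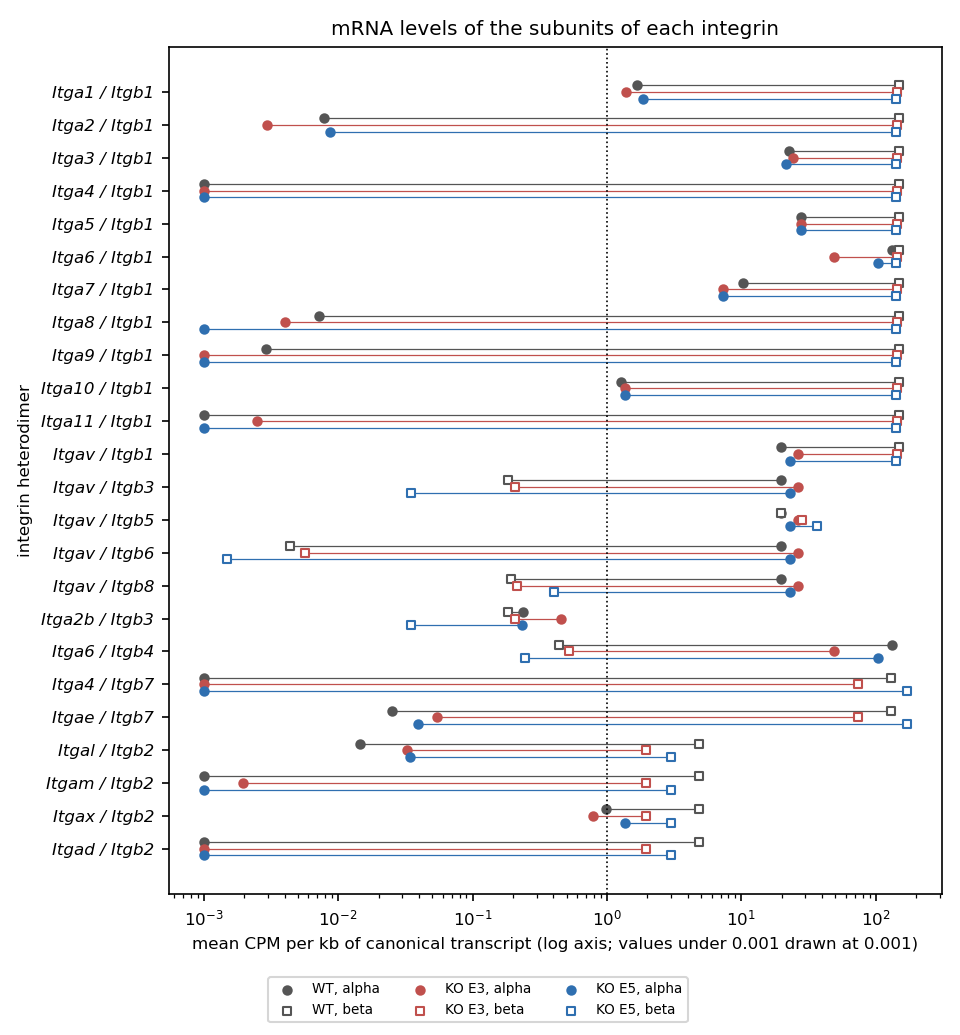
Mean CPM per kb (log axis) of the alpha subunit (circles) and the beta subunit (squares) of each of 24 integrin heterodimers in WT, clone E3 and clone E5, joined by a line, with values under 0.001 drawn at 0.001 and a dotted line at 1. Pairs of beta 1 with alpha 3, 5, 6, 7 and v lie right of the dotted line at both ends, while the pairs of beta 7 span the axis from Itga4 or Itgae near 0 to Itgb7 above 70.

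Expressed as a share of all alpha subunit mRNA per kb, Itga6 made up 61.1% ± 1.33 in WT, 34.8% ± 3.70 in clone E3 and 55.4% ± 3.83 in clone E5 (SD, n = 3 each). The summed alpha level was 216, 139 and 189 CPM per kb in the same order. A lower Itga6 share raises the shares of the other subunits by construction. Itgav made up 9.04% in WT and 18.7% in clone E3, Itga5 12.8% and 20.4%, and Itga3 10.4% and 17.7%. Their own levels were 19.6 and 26.5 CPM per kb for Itgav, 27.6 and 27.7 for Itga5, and 22.6 and 24.3 for Itga3. None of these differences passed in the fit of all 9 libraries. With exon-union lengths the Itga6 share was 45.3%, 22.0% and 39.5% for WT, clone E3 and clone E5, and so had the same order of lines. Among beta subunits Itgb1 made up 49.0% ± 1.26 in WT, 57.8% ± 5.15 in clone E3 and 40.2% ± 0.633 in clone E5. The summed beta level was 304, 248 and 352 CPM per kb in the same order, while Itgb1 itself stood at 149, 143 and 142. Itgb7 made up 42.7% ± 1.79, 29.6% ± 4.17 and 48.3% ± 0.822, and thus was the most abundant beta mRNA per kb in clone E5. Itgb5 rose from 6.48% in WT to 11.4% (clone E3) and 10.4% (clone E5). Its level was 19.6, 28.1 and 36.7 CPM per kb in the same order, and so was highest in clone E5.

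**Figure D5:**
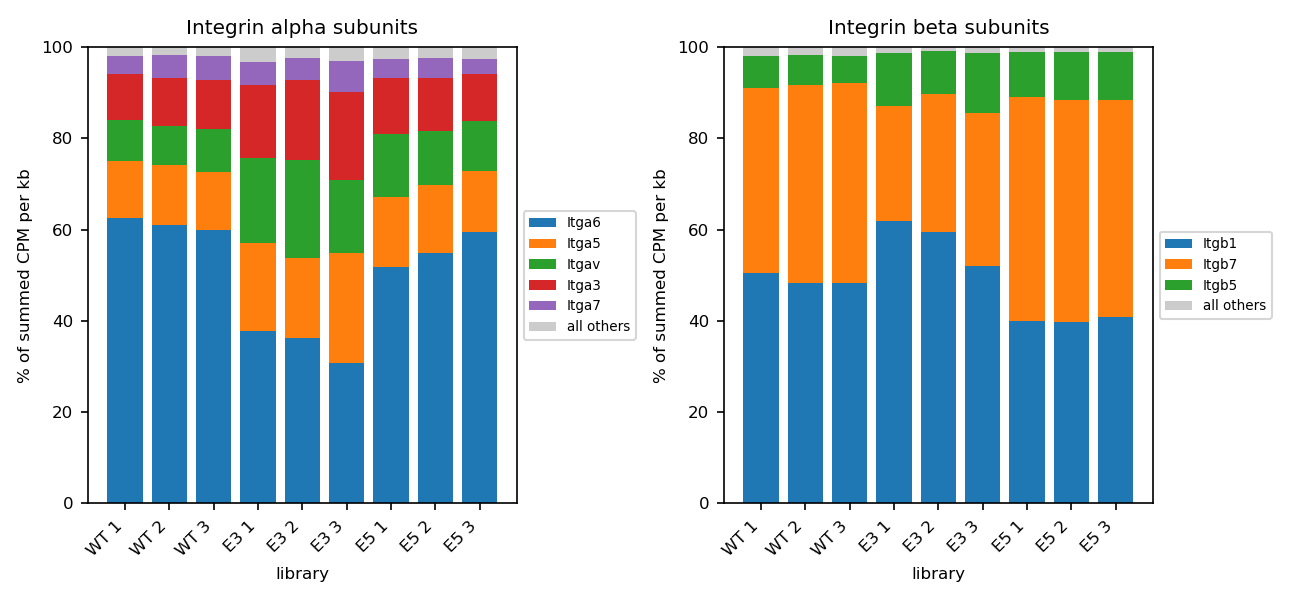
Share of summed CPM per kb taken by each alpha subunit (left) and each beta subunit (right) in each library, with bars stacked to 100%. The Itga6 share of the 3 clone E3 libraries lies between 30.7% and 37.7%, below all other libraries, and the Itgb7 share is largest in the clone E5 libraries.

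Of the 5 adaptors around FAK and Src, 4 passed in clone E3 and 2 in clone E5, beside 30.5% and 20.6% of all genes. Pxn (chr5:115644735-115694046) encodes paxillin, the scaffold that docks FAK at new adhesions. It was measured at 267, 291 and 285 CPM in WT, at 156, 149 and 124 in clone E3 and at 161, 181 and 178 in clone E5. All 6 KO libraries lay far below the WT range. Pxn fell by 0.97 in clone E3 (SE 0.11, adjusted p = 0.00015) and by 0.69 in clone E5 (SE 0.11, adjusted p = 0.00121). Ptk2b (chr14:66390706-66518501), the FAK relative PYK2, was low, at 1.30, 1.70 and 1.48 CPM in WT, 0.860, 0.592 and 0.748 in clone E3 and 0.560, 0.868 and 0.740 in clone E5. Every KO library was below every WT library. It fell by 1.02 in clone E3 (adjusted p = 0.00828) and by 1.04 in clone E5 (adjusted p = 0.0102), the latter call being lost without WT replicate 2 (adjusted p up to 0.0519).

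Ptk2 and Src, the kinases at the centre of this group, were both above 100 CPM in every library. Ptk2, which encodes FAK, was measured at 186, 202 and 207 CPM in WT, at 167, 169 and 124 in clone E3 and at 201, 196 and 183 in clone E5. The clone E3 libraries lay below the WT range and clone E5 overlapped it. Ptk2 fell by 0.37 in clone E3 (adjusted p = 0.0466), a call lost in 10 of 16 alternatives (adjusted p up to 0.149), among them the omission of any WT or clone E5 library. In clone E5 the log2 difference was -0.03 with an interval of -0.31 to 0.24. Src was measured at 124, 142 and 139 CPM in WT, at 114, 120 and 102 in clone E3 and at 118, 126 and 115 in clone E5. Its differences of -0.28 (adjusted p = 0.0578) and -0.18 (adjusted p = 0.243) did not pass. The first passed without clone E3 replicate 3 (-0.21, adjusted p = 0.0345), and by DESeq2 with all libraries (adjusted p = 0.0350). Bcar1, the p130Cas substrate of both kinases, rose in clone E3 alone by the test, from 118 to 131 CPM in WT to 159 to 178 CPM (log2 difference 0.40, adjusted p = 0.0158), a call lost without WT replicate 1 or 2 (adjusted p up to 0.0762).

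Among the integrin activators, none of the 4 tested members, Tln1 and Tln2 (talins) and Fermt2 and Fermt3 (kindlins), passed in either clone, with log2 differences from -0.22 to 0.28 in clone E3 and from -0.21 to 0.48 in clone E5, and Fermt1 was not tested. At an unadjusted p under 0.05 none of the 4 was counted either. DESeq2 also gave no call among them against WT. Tln1, the most abundant of the 4, was measured at 511 to 643 CPM in WT, at 370 to 715 in clone E3 and at 599 to 661 in clone E5. Without clone E3 replicate 3, Fermt2 passed in clone E3 (0.39, adjusted p = 0.00686) and Tln2 in clone E5 (0.48, adjusted p = 0.00122).

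In the complex of integrin-linked kinase, PINCH and parvin, Ilk rose and Lims1 (PINCH-1) fell in clone E3, while in the fit of all 9 libraries none of the 3 passed in clone E5. Ilk was measured at 136, 136 and 133 CPM in WT, at 186, 180 and 211 in clone E3 and at 142, 139 and 131 in clone E5. Its log2 difference was 0.51 in clone E3 (SE 0.09, adjusted p = 0.00226). In the GENCODE annotation 2269 of the 2932 exonic bases of Ilk overlap Taf10 on the other strand, and the strand setting of the counting is not given in the sources used here. Lims1 stood at 122 to 135 CPM in WT and 76.3 to 105 in clone E3 (log2 difference -0.44, adjusted p = 0.0216), a call lost when any 1 WT library was left out (adjusted p up to 0.0797). In clone E5 all 3 libraries, at 104 to 115 CPM, were below the WT range, and the difference of -0.25 (adjusted p = 0.192) passed without clone E3 replicate 3 (-0.24, adjusted p = 0.00727). The 40 genes nearest to Lims1 had a median log2 difference of -0.42 in clone E3, and their part in its change was not tested. Parva did not pass (0.22 and -0.12), and without clone E3 replicate 3 it passed in clone E3 at 0.38 (adjusted p = 0.000606).

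Of the proteins that link mature adhesions to actin, Zyx (chr6:42326564-42337147) fell in both clones. Zyxin, its product, marks adhesions under tension. Zyx was measured at 263, 278 and 292 CPM in WT, at 173, 184 and 188 in clone E3 and at 176, 172 and 167 in clone E5. The 6 KO libraries spanned 167 to 188 CPM and did not reach the WT range. It fell by 0.62 in clone E3 (SE 0.09, adjusted p = 0.000562) and by 0.70 in clone E5 (SE 0.09, adjusted p = 0.000293). Its 40 nearest tested genes had medians of -0.26 and -0.25, and their part was not tested. Vcl, which encodes vinculin, was measured at 316, 315 and 322 CPM in WT, at 372, 361 and 224 in clone E3 and at 320, 319 and 291 in clone E5. Its differences were 0.00 (interval -0.36 to 0.37) and -0.04 (interval -0.41 to 0.33). Without clone E3 replicate 3, which was the lowest library, Vcl passed at 0.20 in clone E3 (adjusted p = 0.0307).

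The 3 tensins among the members, which tie integrin tails to actin filaments, did not move together. Tns1 (chr1:73949390-74163608) was measured at 6.69, 3.55 and 3.52 CPM in WT, at 20.4, 10.1 and 11.0 in clone E3 and at 0.819, 1.34 and 2.00 in clone E5. The lines did not overlap, and the KO clones lay on opposite sides of WT. Tns1 rose by 1.59 in clone E3 (SE 0.36, adjusted p = 0.00779), 3.02-fold, and fell by 1.71 in clone E5 (SE 0.40, adjusted p = 0.0119), 3.28-fold, the latter call being lost without WT replicate 1 or clone E5 replicate 1 (adjusted p up to 0.0521). Tns3 was measured at 82.9 to 92.9 CPM in WT, at 113 to 186 in clone E3 and at 113 to 127 in clone E5. It rose by 0.84 in clone E3 (adjusted p = 0.00326). In clone E5, where every library was above the WT range, the difference of 0.49 missed the threshold (adjusted p = 0.0569). The clone E5 difference passed without clone E3 replicate 3 (adjusted p = 0.000201), and by DESeq2 with all libraries (adjusted p = 0.0296). Tns2 did not pass (0.26 and -0.13), and without that library it passed in clone E3 at 0.36 (adjusted p = 0.000776).

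Promoter windows, from 250 bases before to 50 bases after each gene's start, were at hand from RefSeq (GRCm38.p6) for 31 of the 44 members. The windows of 5 genes are shown because their genes carry the patterns above: Zyx (lower in both clones), Itgb5 (higher in both), Itgb7 and Tns1 (opposite directions) and Vcl (not called). They lie at chr6:42349578-42349877 (+) for Zyx, chr16:33829415-33829714 (+) for Itgb5, chr15:102231886-102232185 (-) for Itgb7, chr1:74124499-74124798 (-) for Tns1 and chr14:20929148-20929447 (+) for Vcl. Capitals mark an AP-1 site (TGANTCA) in Zyx at base -121 from the start, and a CArG box, the element bound by serum response factor, in Vcl at base -227.
Zyx: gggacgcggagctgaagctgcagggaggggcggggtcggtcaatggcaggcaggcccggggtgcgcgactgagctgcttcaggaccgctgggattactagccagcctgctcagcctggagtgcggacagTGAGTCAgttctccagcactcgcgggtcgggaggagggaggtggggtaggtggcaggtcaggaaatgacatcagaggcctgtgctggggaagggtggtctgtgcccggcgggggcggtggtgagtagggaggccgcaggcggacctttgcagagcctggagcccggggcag
Itgb5: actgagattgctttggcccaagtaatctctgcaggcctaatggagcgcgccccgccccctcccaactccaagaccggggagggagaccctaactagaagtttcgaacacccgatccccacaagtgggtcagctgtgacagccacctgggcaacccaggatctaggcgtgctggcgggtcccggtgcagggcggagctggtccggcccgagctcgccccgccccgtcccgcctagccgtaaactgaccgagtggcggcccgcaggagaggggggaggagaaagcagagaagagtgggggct
Itgb7: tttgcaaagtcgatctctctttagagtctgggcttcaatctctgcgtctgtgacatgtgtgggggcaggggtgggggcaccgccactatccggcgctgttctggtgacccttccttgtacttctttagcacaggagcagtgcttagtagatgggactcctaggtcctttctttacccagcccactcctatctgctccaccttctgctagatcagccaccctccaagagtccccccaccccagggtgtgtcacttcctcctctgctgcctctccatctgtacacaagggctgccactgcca
Tns1: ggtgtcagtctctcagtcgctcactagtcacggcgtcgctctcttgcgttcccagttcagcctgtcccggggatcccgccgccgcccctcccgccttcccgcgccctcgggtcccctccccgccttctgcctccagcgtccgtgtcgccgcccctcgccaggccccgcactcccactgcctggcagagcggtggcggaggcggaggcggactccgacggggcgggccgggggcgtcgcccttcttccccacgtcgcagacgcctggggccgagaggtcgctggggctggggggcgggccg
Vcl: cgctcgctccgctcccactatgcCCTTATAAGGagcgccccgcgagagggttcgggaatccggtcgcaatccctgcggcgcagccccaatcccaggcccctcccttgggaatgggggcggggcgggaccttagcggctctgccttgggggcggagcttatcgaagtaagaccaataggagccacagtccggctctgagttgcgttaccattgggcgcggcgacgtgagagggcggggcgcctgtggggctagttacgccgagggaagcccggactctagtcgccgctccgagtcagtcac

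In all, 5 motifs of factors active in adhesion and growth signalling were searched on both strands: the AP-1 site, the CArG box, an EGR site (GCGTGGGCG), an ETS site (CCGGAAGT) and a TEAD site (CATTCCA). The AP-1 site was found in the windows of Zyx, Itga3, Itga9 and Itgax, and in 7.81% of all 32851 windows. The CArG box was found in those of Vcl, Fermt2 and Itgb6, and in 1.63% of all windows, the TEAD site in that of Itga10 (4.29% of all windows), and the EGR and ETS sites in none of the members (0.612% and 3.89% of all windows). Of the genes with a match, Zyx passed in both clones, while Itga3, Itgax, Vcl, Fermt2 and Itga10 passed in neither comparison with WT and Itga9 and Itgb6 were not tested. No window was at hand for Itga6, Itga7, Itgad, Itgae, Itgal, Itgb2, Itgb3, Itgb4, Parva, Ptk2, Ptk2b, Pxn or Tln2.

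The 2 clones were also set against each other directly. Between them 14 of the 34 members passed (41.2%), beside 31.9% of all genes, with 6 higher in clone E5 and 8 lower where 14.7% and 17.2% of all genes were. The count was 22 without clone E3 replicate 3 (44.1% of all genes). Of the 14, 5 were DEGs, beside 11.0% of all genes, 2 of them higher in clone E5 and 3 lower (3.49% and 7.52% of all genes). Those that passed included 6 of the 7 tested beta subunits, all but Itgb1. Higher in clone E5 were Itgb7 by 1.22 (adjusted p = 1.93e-05), Itga6 by 1.09 (adjusted p = 0.00195), Itgb8, Itgax, Itgb2 and Itgb5 by 0.90, 0.79, 0.60 and 0.38. Lower in clone E5 were Tns1 by -3.31 (adjusted p = 0.000175), Itgb3 by -2.57 (adjusted p = 0.000218), Itgb4 by -1.10 (adjusted p = 0.00334) and Itga2b by -0.97, with Fermt2, Ilk, Bcar1 and Tns2 between -0.49 and -0.39. The FAK and paxillin genes did not pass between the clones (Ptk2 0.34, adjusted p = 0.0638, and Pxn 0.28, adjusted p = 0.0722), nor did Zyx (-0.08, interval -0.27 to 0.11). Without clone E3 replicate 3, 8 further members passed between the clones: Ptk2 at 0.21 (adjusted p = 0.0293), Pxn at 0.19 (adjusted p = 0.0461), Tln2 at 0.37, Parva at -0.50, Tns3 at -0.53, Vcl at -0.23, Itgav at -0.44 and Itga3 at -0.27. DESeq2 also called Ptk2 (adjusted p = 0.0468) and Tln2 (adjusted p = 0.0481) with all libraries. In 4 cases the call was lost without single libraries. Fermt2 lost it without clone E3 replicate 1 or clone E5 replicate 2 or 3, and Itgb5 without clone E3 replicate 2 or clone E5 replicate 2 or 3. Itgb8 lost it without clone E5 replicate 2 or 3, and Tns2 without clone E3 replicate 1 or any clone E5 library. The calls of Fermt2, Itgb5 and Tns2 were also lost in fits of 2 groups only. That of Itgb5 was lost with upper-quartile scaling and with a replicate block as well. Over all 16 alternatives the adjusted p reached 0.0767 for Fermt2, 0.110 for Itgb5, 0.0704 for Itgb8 and 0.0740 for Tns2.

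Beside the members, 130 genes of the wider adhesion machinery were examined in 4 lists, and 108 of them were tested. The lists were written from general knowledge, but with earlier results of these data known. In clone E3 41 of the 108 passed (26 higher, 15 lower) and in clone E5 25 passed (11 higher, 14 lower), that is 38.0% and 23.1% of those tested, beside the 30.5% and 20.6% of all genes. The count in clone E3 was 24, 22 and 25 without WT replicate 1, 2 and 3, where 21.5%, 19.3% and 20.1% of all genes passed. The count in clone E5 was 64 without clone E3 replicate 3, where 42.0% of all genes passed. Among 42 further adaptors and signalling proteins, 7 were higher and 9 lower in clone E3, and 4 higher and 5 lower in clone E5. Fyn, a Src family kinase, fell in both clones, with differences of -1.92 and -1.50 (adjusted p = 2.66e-05 and 9.08e-05), from a mean of 136 CPM in WT to 36.2 and 48.1 CPM. Tgfb1i1, which encodes the paxillin relative Hic-5, fell too, the differences being -3.40 and -3.23 (adjusted p = 5.36e-05 and 5.24e-05) from a mean of 1.43 CPM in WT to 0.132 and 0.149 CPM. Efs, a p130Cas relative, rose in clone E3 by 1.77 (adjusted p = 0.00195), and Pak1, a kinase that acts on paxillin and actin, rose in both clones, by 0.62 in clone E3 (adjusted p = 0.000776) and by 1.01 in clone E5 (adjusted p = 3.85e-05).

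Of 28 actin linkers, 5 passed in clone E3 (17.9%) and 4 in clone E5 (14.3%), shares below the 30.5% and 20.6% of all genes. Palld (palladin) fell by 3.00 in clone E5 (adjusted p = 9.4e-07), from a mean of 8.08 CPM in WT to 1.01 CPM, and rose by 0.71 in clone E3 to a mean of 13.2 CPM (adjusted p = 0.00358). Sorbs2 (a vinexin family protein) fell by 2.55 in clone E5 (adjusted p = 0.000464), and its difference of -0.48 in clone E3 did not pass. Of 10 tetraspanins and other integrin partners in the membrane, 3 were higher and 3 lower in clone E3 (60% passed). In clone E5 2 were higher and 1 lower (30% passed). Tspan8, a tetraspanin, fell by 3.20 in clone E3 (adjusted p = 3.53e-05) and rose by 1.61 in clone E5 (adjusted p = 0.000245), at means of 1.24, 0.132 and 3.79 CPM in WT, clone E3 and clone E5. Slc3a2, the CD98 heavy chain that binds beta 1 and beta 3 tails, fell by 1.22 in clone E3 (adjusted p = 0.000975), and Cd53 fell by 1.29 at means of 0.262 and 0.107 CPM (adjusted p = 0.0493).

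Of 28 matrix ligands, 12 were higher and 2 lower in clone E3, where 15.7% and 14.7% of all genes were. In clone E5 3 were higher and 6 lower, where 8.96% and 11.7% of all genes were. In clone E3 the collagen VI chains Col6a2 and Col6a1 rose by 1.07 and 1.04 (adjusted p = 0.000296 and 0.000317) and Thbs1, a thrombospondin and a ligand of CD47 itself, rose by 1.27 (adjusted p = 0.000539). In clone E5 Fbn1 (fibrillin-1) fell by 1.62 (adjusted p = 0.00435), from a mean of 111 CPM to 36.0 CPM, and Col1a1 fell by 1.45 (adjusted p = 0.00392) from a mean of 1.67 CPM, while in clone E3 Col1a1 rose by 0.99 (adjusted p = 0.0111). Col6a2 fell in clone E5 by 0.65 (adjusted p = 0.00647), the opposite of its change in clone E3. Lama1, a laminin chain, stood at a mean of 0.294 CPM in WT and 0.00718 CPM in clone E5, which is under the limit that a count of 0 allows. Between the clones 17 of the 28 tested ligands passed, 4 higher and 13 lower in clone E5, beside the 31.9% of all genes, 14.7% higher and 17.2% lower.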

How the data were processed

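RNA-seq libraries of LLC WT cells, CD47 KO clone E3 and CD47 KO clone E5 (3 each) were grouped by GEO's labels. Per the labels and the study's methods, the authors sequenced directional poly(A) libraries as paired ends, processed the reads with FastQC, Trimmomatic and STAR (GRCm39), and deposited raw counts per gene, neither normalized nor pooled. Which program counted the reads, with which strand setting and annotation, is not given in the sources used here. Column totals exceed the read number that the labels state, so whether mates were counted singly is also unknown.

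From the deposited counts, TMM-scaled CPM and edgeR quasi-likelihood tests (edgeR 4.0.16, R 4.3.3) were computed over the 14593 of 50813 genes kept by filterByExpr (minimum count 10, minimum total 15), with all 9 libraries in 1 fit. Benjamini-Hochberg adjustment ran over all genes tested. The authors used DESeq2, which was run as an alternative (version 1.42.0). DEGs passed at an adjusted p under 0.05 with a change above 1 (log2) in either direction. SEs were taken from the log2 fold change and its F statistic (size divided by root F). Replicates are described as independent, and the detection limit of 3 counts covers counting error only. Transcript lengths came from GENCODE release M39, in which 98.9% of the identifiers and all 44 members were found. The exonic overlaps are from the same release.

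The members, the gene lists and the heterodimers were chosen with earlier results of these data known. Members that were DEGs in any comparison, and Itgb1, Itgb3, Itgav, Itga5, Ptk2, Src and Pxn whatever their result, were given in every library. Of each related list, the 3 DEGs with the smallest adjusted p against WT were named. Values of further members, and Lims1's and Ilk's neighbours and overlaps, were added after they were seen. Medians of neighbouring genes were given above for Itgb5, Itgb2, Lims1 and Zyx only. For the neighbours of Itga6 and Pxn they were 0.17 and 0.13 in clone E3, where both genes fell, and -0.06 and -0.19 in clone E5. Endothelial markers had at most 5 counts in any library. Same-numbered replicates did not deviate together (correlations from -0.254 to 0.0993), so no pairing was used. The alternatives were DESeq2, 2 other scalings, 2 other filters, fits of 2 groups only, a replicate block and the omission of each library.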

Additional observations from a re-analysis of the deposited data

Results flagged for a closer look

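The members below differed between the 2 KO clones in the direct comparison of clone E5 with clone E3, by edgeR's quasi-likelihood test with an adjusted p under 0.05. Cd47 itself also differed between the clones (-1.36, adjusted p = 2.76e-05). The log2 differences of clone E5 from clone E3 were 1.22 for Itgb7, 1.09 for Itga6, 0.90 for Itgb8, 0.79 for Itgax, 0.60 for Itgb2 and 0.38 for Itgb5. They were -3.31 for Tns1, -2.57 for Itgb3, -1.10 for Itgb4, -0.97 for Itga2b, -0.49 for Fermt2, -0.48 for Ilk, -0.48 for Bcar1 and -0.39 for Tns2. Of these 14, Itgb7 and Tns1 passed against WT in opposite directions, with Itgb7 at -0.83 (clone E3) and 0.39 (clone E5), and Tns1 at 1.59 and -1.71 in that order. Itgb2 and Itgb5 passed against WT in the same direction in both clones, by different amounts. For Itgb5 the call between the clones was lost in 6 of 16 alternatives. Itgax, Fermt2 and Tns2 passed against WT in neither clone. Groups of 3 libraries are too small for a test of single outlying libraries, and none was made.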

How the results depend on the processing

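No fold change of a called member changed its sign in any of 16 alternatives: of 1624 values over 102 member comparisons, 1459 kept their direction and side of the threshold, 62 lost it, 41 gained it, 62 that were called under neither setting changed sign, and 0 called ones reversed. Leaving out 1 library at a time changed the number of members that passed from 15 to between 11 and 21 in clone E3 against WT, from 11 to between 6 and 16 in clone E5 against WT, and from 14 to between 10 and 22 between the clones. The highest counts came without clone E3 replicate 3 and the lowest without WT replicate 2 or, between the clones, clone E5 replicate 2 or 3. Member DEGs ranged from 3 to 6, from 2 to 5 and from 4 to 6 in the same order. Related adhesion genes that passed ranged from 22 to 60, from 17 to 64 and from 29 to 61. The share of all genes that passed moved too, from 19.3% to 43.2%, from 11.9% to 42.0% and from 21.7% to 44.1%. When clone E5 and WT were fitted without clone E3, 18 members and 66 related genes passed in place of 11 and 25, while the share of all genes rose from 20.6% to 46.8%. DESeq2 called 16, 12 and 16 members, and 34.2%, 25.2% and 35.8% of all genes. Upper-quartile scaling shifted the median of all genes to 0.09 in clone E3, -0.02 in clone E5 and -0.10 between the clones.

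With the replicate number as a block, 13, 10 and 13 members passed in clone E3, clone E5 and between the clones, beside 25.1%, 15.8% and 26.6% of all genes, with 4, 4 and 5 DEGs and 31, 22 and 34 related genes. The labels do not say whether libraries with the same replicate number share a culture or preparation, so the block is given only as an alternative. Depth limits the low members: Itgb3 rests on 6 to 14 counts per clone E5 library, and the 10 untested members had at most 12.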
